A study of Mus musculus with 8 samples.

Results

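The comparison described here is of resting mouse embryonic fibroblasts that lack the transcription factor Stat3 (Stat3 KO, titled STAT3-/-) with fibroblasts that carry it (Stat3 WT, titled STAT3+/+), before any cytokine was added. It rests on 4 of the 8 arrays of the series, those whose titles name no oncostatin M (OSM), with 2 arrays per line numbered 2 and 3. Both lines are embryonic fibroblasts that had become immortal in culture spontaneously, and all arrays were grown in medium with serum. The other 4 arrays come from the same lines after OSM at 20 ng/ml for 30 minutes, and they were used here only to read the same genes again. The growth text names OSM for every sample, so the titles alone assign the treatment. Each genotype is 1 cell line, so effects of Stat3 and of any other difference between the lines cannot be told apart. The sources used here do not say how Stat3 was deleted, whether the lines come from littermates, or whether same-numbered arrays share a culture.

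Stat3 is a latent factor of the cytoplasm that JAK kinases phosphorylate at cytokine receptors built on gp130. It then pairs and enters the nucleus, where STAT dimers bind sites of the form TTCNNNGAA. The pathway is known for the acute-phase response, for wound repair and for restraining interferon-type responses, fibroblasts included. Lines that grow out of embryo cultures without a transforming gene pass through a crisis, and they are known to leave it with altered chromosomes and altered p53 or Cdkn2a control.

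Each value is the log2 GCRMA signal of a probe set. A probe set was tested where its log2 value reached 5 on at least 2 of the 8 arrays, which held for 6756 probe sets of 5195 genes, out of 12488 on the array. All differences are Stat3 KO minus Stat3 WT on the log2 scale, so that 1 is a 2-fold difference. Array medians ran from 5.25 to 5.65, and 51.3% to 52.6% of probe sets reached 5 on the untreated arrays. The closest arrays were those that share a number and not those that share a line. The correlation over tested probe sets was 0.9493 between the lines in number 2 and 0.954 in number 3, against 0.8694 between the Stat3 WT arrays and 0.8913 between the Stat3 KO arrays. The signal of 18S RNA moved with the number, at 11.02 and 11.28 on the number 2 arrays against 15.13 and 14.77 on the number 3 arrays. The 3′ minus 5′ value of actin was 0.53 on both number 2 arrays and 1.11 and 0.85 on the number 3 arrays. The part of these in the results was not tested. The number 2 array of OSM-treated Stat3 KO cells correlated at 0.9472 with the untreated array of its line and number, while the other 3 such pairs correlated at 0.9709 to 0.977.

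No probe set passed an adjusted p under 0.05 (limma, Benjamini-Hochberg) between untreated Stat3 KO and Stat3 WT, with or without the replicate number as a block. The lowest adjusted p was 0.288 without the block and 0.0709 with it. At an unadjusted p under 0.05 there were 151 probe sets (2.24%) without the block and 653 (9.67%) with it. The untreated differences below are therefore given as values, mostly within each number. Within number 2 the median size of the difference between the lines was 0.389, and within number 3 it was 0.291. The differences of the 2 numbers correlated at only 0.16 over tested probe sets, and the median size of number 3 minus number 2 within a line was larger, at 0.684 and 0.605.

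A difference of over 1 in the same direction within both numbers was found for 137 probe sets (2.03% of those tested), 67 higher (0.992%) and 70 lower (1.04%) in Stat3 KO. With 1 probe set per gene these were 103 genes (1.98%), 52 higher (1.0%) and 51 lower (0.982%). The line where they were drawn is arbitrary: Pfkl, at -1.0 and -1.05, lay just inside and Tbce, at -1.0 and -1.13, just outside, while on the other side AI413582, at 1.02 and 1.74, lay inside and Ces1g, at 5.17 and 0.99, outside. Over all probe sets the balance was toward lower values, with 2277 lower (33.7%) and 1411 higher (20.9%) within both numbers, 54.6% in all. That balance depends on the scaling: 38.3% of these probe sets were higher as deposited and 53.7% after median centring, which moved the median difference from -0.06 to 0.05. Among probe sets over 1 apart the share that was higher moved from 48.9% to 61.7%.

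**Figure D1:**
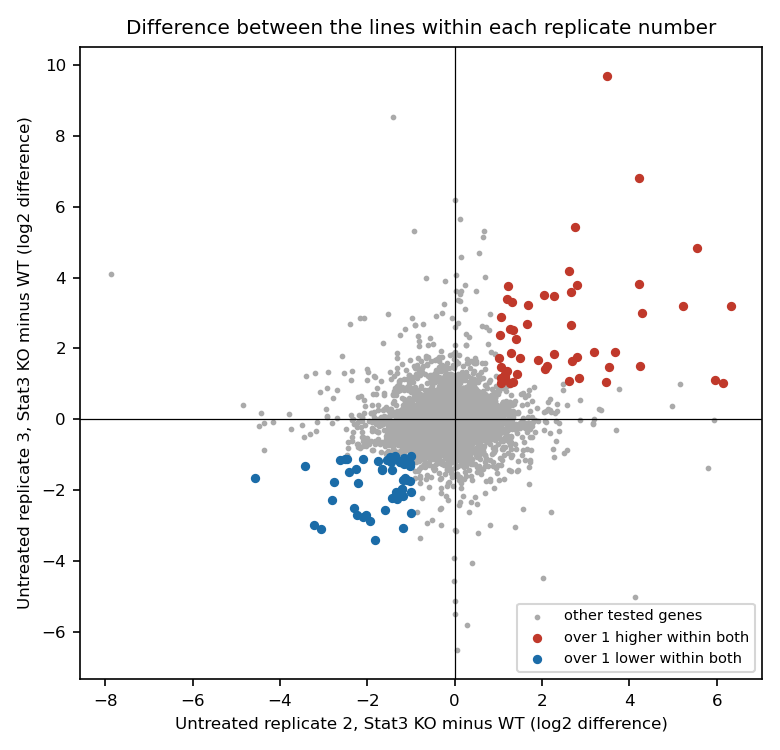
Difference between the untreated lines in number 2 (horizontal) and number 3 (vertical), log2 Stat3 KO minus WT, 1 point per tested gene. The 52 red and 51 blue genes are over 1 apart in the same direction within both numbers, and most other genes lie near 0 on at least 1 axis.

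The OSM-treated arrays share no array with this comparison and were read for the same genes. They are no independent reading, because arrays of 1 line and number resemble each other across treatments. Number 3 minus number 2 correlated between untreated and OSM-treated arrays at 0.9106 in Stat3 WT and 0.7935 in Stat3 KO. Of the 52 genes higher in untreated Stat3 KO, 34 (65.4%) were also over 1 higher within both numbers after OSM, and 50 (96.2%) had the same direction, against 2.1% and 28.3% of all tested genes. Untreated, 54.7% of genes had 1 direction within both numbers. Of the 51 lower genes, 17 (33.3%) were over 1 lower after OSM and 36 (70.6%) had the same direction, against 1.83% and 28.6%. The median difference of the higher genes was 2.21 untreated and 2.30 after OSM. For the lower genes it was -1.62 untreated and -0.89 after OSM, with -0.07 and -0.01 over all genes. The genes were chosen on the untreated values, which by itself favours smaller differences on the OSM-treated arrays. The median of the higher genes, chosen by the same rule, did not fall. Why the 2 directions differed was not tested. In number 3 alone 67.1% of the lower probe sets were over 1 lower after OSM, against 37.1% in number 2, which holds the array that correlated least with its untreated partner. For the higher probe sets these shares were 89.6% and 62.7%. Of all tested probe sets, 6.28% were over 1 lower in number 3 and 7.82% in number 2, and 6.91% and 8.61% were over 1 higher. A further 19 tested probe sets stand for 18 of the 103 genes. Of these, 17 had the gene's direction within both numbers, 5 were over 1 apart within both, and 0 were opposite.

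Averaged over untreated and OSM-treated arrays, 4 against 4, limma called 1 probe set without the block (0.0148%), that of Cx3cl1 (adjusted p = 0.0141). With the replicate number as a block it called 29 (0.429%), of which 15 were higher (0.222%) and 14 lower (0.207%). Of the 29, 28 have 1 gene symbol and belong to 27 genes. Counting only genes whose brightest probe set passed, there were 25, 13 higher and 12 lower. They depend on all 8 arrays: without any 1 array the block fit called 0 to 5 probe sets. The average borrows from the OSM-treated arrays and is no test of untreated cells alone. It counts the untreated and OSM-treated arrays of 1 line and number as separate, although such pairs correlated at 0.9472 to 0.977. The 2 untreated arrays of a line correlated at 0.8694 and 0.8913. The fit takes no account of such pairs, so its p-values may be too small. On the OSM-treated arrays by themselves limma called 1 probe set (0.0148%), and with the block 7 (0.104%), 4 higher (0.0592%) and 3 lower (0.0444%). The 25 genes that passed by their brightest probe set are those of the average over both treatments with the block. Higher in Stat3 KO were Cx3cl1, Psmb8, Postn, Adcy7, Mmp9, Rspo1, Aldh3a1, Irx3, Irf1, Vamp5, Tnc, Nrep and Srpx. Those lower were Selp, Pax3, Myo5b, Stat3, Cystm1, Rhou, Ptgis, Cebpd, Pfkl, Cp, Nek6 and Ginm1. Of these, 22 are among the 103 genes above, which were chosen on part of the same arrays.

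Stat3 itself read 10.11 and 10.50 on the Stat3 WT arrays of number 2 and 3, and 8.08 and 7.81 on the Stat3 KO arrays. Both Stat3 KO arrays were lower, by 2.36 ± 0.33 (limma SE), with an adjusted p of 0.739 untreated (limma) and 0.0193 over both treatments with the block. A second probe set for Stat3 separated the lines further, at 9.80 and 10.95 against 2.76 and 2.86. After OSM it read 11.99 and 12.57 in Stat3 WT and 2.94 and 7.30 in Stat3 KO, so it was above 5 on the number 3 array. The labels do not give the deleted exons, so neither probe set can be placed against them. The library labels and the Stat3 signal go the same way on all 4 arrays.

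**Figure D2:**
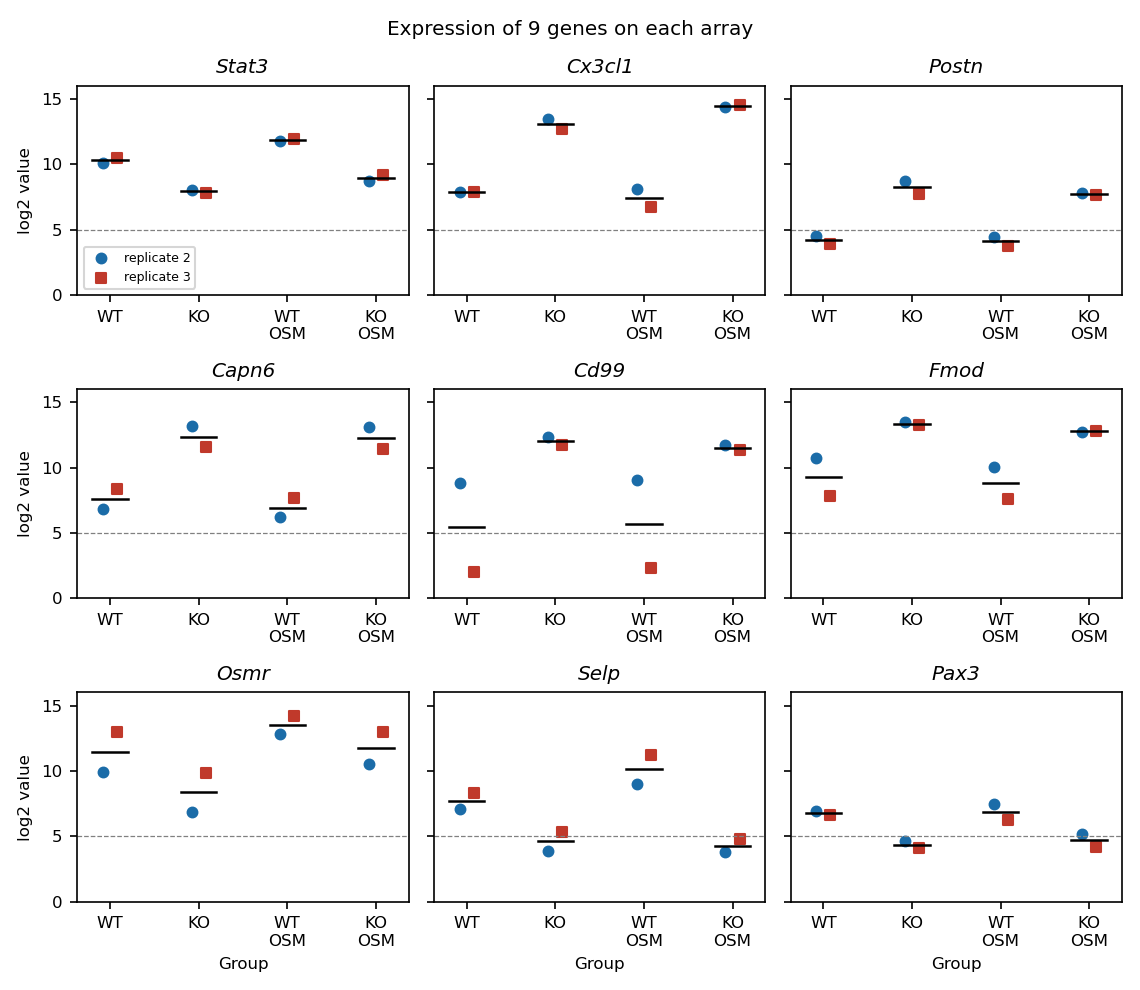
Log2 values (vertical) of 9 genes on all 8 arrays by group, with circles for number 2, squares for number 3, a bar at each group mean and a dashed line at the floor of 5. In untreated cells both Stat3 KO arrays are higher for Cx3cl1, Postn, Capn6, Cd99 and Fmod, and both are lower for Stat3, Osmr, Selp and Pax3.

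A receptor chain and a kinase of the pathway are among the 51 lower genes, which are 0.982% of all tested genes. They were grouped by role after their values were seen, and other members of the pathway were not counted here. Osmr, the OSM-specific receptor chain that pairs with gp130, read 9.91 and 12.98 in Stat3 WT and 6.84 and 9.87 in Stat3 KO. The groups nearly meet, because number 3 was higher than number 2 in each line, yet the difference was the same within each number, -3.07 and -3.11. It did not pass over both treatments (adjusted p = 0.055 with the block, limma). Jak2, a kinase bound to gp130-type receptors, was 10.78 and 11.02 in Stat3 WT and 8.15 and 9.88 in Stat3 KO, with differences of -2.63 and -1.14. Jak2 did not pass over both treatments either (adjusted p = 0.0562 with the block). Cebpd, an acute-phase regulator and known Stat3 target, was 10.75 and 12.57 against 9.56 and 10.40. Cebpd passed over both treatments (adjusted p = 0.0471 with the block).

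Selp, P-selectin, an adhesion molecule that captures leukocytes, was lower in all 4 pairs of arrays. It read 7.11 and 8.32 in Stat3 WT and 3.89 and 5.32 in Stat3 KO. After OSM it read 9.0 and 11.22 against 3.77 and 4.82. Over both treatments the difference was -4.46 ± 0.24 (limma SE with the block, adjusted p = 0.00687). Flt4, the VEGF-C receptor, read 10.32 and 10.41 in Stat3 WT and 6.90 and 9.08 in Stat3 KO. Selp and Flt4 are best known from endothelium. Of 12 endothelial markers on the array 4 passed the filter. Of these 4, 3 were above 0 in number 2 and 0 in number 3, and 0 were over 1 apart within both, against 1.98% of all tested genes. Cdh5 and Tie1 from that list read between 2.24 and 2.84 on the untreated arrays.

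Nfkbiz, an inducible nuclear partner of NF-kB, was lower by 2.82 and 2.27 within the numbers. Its levels were dominated by the number, at 5.38 and 10.96 in Stat3 WT and 2.57 and 8.69 in Stat3 KO, and without 1 array the difference ran from -5.61 to 0.52. After OSM it was 0.61 higher in number 2 and 1.26 lower in number 3. A second probe set of Nfkbiz, near the floor, differed by only -0.11 and -0.23 untreated.

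The first gene on the higher side, ranked by the smaller of its within-number differences, was Cx3cl1. Cx3cl1, fractalkine, a membrane-bound chemokine for monocytes and T cells, read 7.89 and 7.92 in Stat3 WT and 13.45 and 12.75 in Stat3 KO. The means were 7.91 ± 0.02 and 13.10 ± 0.49 (SD, n = 2). Their separation follows from the ranking, which used these same values, and after OSM the SD of Stat3 WT was 0.96. The untreated difference of 5.19 ± 0.50 (limma SE) had an adjusted p of 0.288, or 0.0709 with the block. Over both treatments the difference was 6.10 ± 0.28 (limma SE with the block, adjusted p = 0.00687).

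Ccl17, a chemokine that attracts T cells through Ccr4, lies next to Cx3cl1 on chromosome 8 with 0 coding genes between them. It read 4.02 and 4.48 in Stat3 WT and 7.69 and 6.39 in Stat3 KO, so that only the Stat3 KO arrays were above the floor of 5. Ccl5, a chemokine for T cells and monocytes on another chromosome, read 6.95 and 6.72 against 9.75 and 10.50. Neither passed over both treatments (adjusted p = 0.0672 and 0.0707 with the block, limma). Il1rn, the secreted antagonist of the interleukin-1 receptor, read 7.55 and 6.12 against 8.75 and 9.51.

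Some genes of antigen processing and interferon responses are among the 52 higher genes. Psmb8, an interferon-inducible subunit of the immunoproteasome, read 4.74 and 4.96 in Stat3 WT and 8.96 and 11.77 in Stat3 KO. After OSM the values were 8.06 and 7.67 against 10.92 and 12.34. It passed over both treatments, by 4.64 ± 0.54 (limma SE with the block, adjusted p = 0.0471). Tap1, the peptide transporter gene beside it on chromosome 17, read 5.24 and 8.87 against 6.51 and 11.42. H2-K1, a class I antigen-presenting chain, read 7.99 and 10.22 against 9.21 and 13.99, though close relatives in the same complex may share its probes.

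Usp18, which removes the ubiquitin-like protein Isg15, and Ifit1, a sensor of viral RNA, show how strongly number and line combined. Usp18 read 1.66 and 8.56 in Stat3 WT and 4.33 and 12.15 in Stat3 KO. Ifit1 read 2.98 and 11.54 against 6.18 and 13.44. In each line number 3 was higher than number 2 by more than the lines differed within a number, so the groups overlap. Leaving out 1 untreated array turned the sign of both, with ranges of -0.78 to 7.04 for Usp18 and -1.74 to 6.83 for Ifit1.

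Of the 29 tested interferon-stimulated genes of the list, 20 were above 0 within number 2 and 29 within number 3. Their median difference was 0.12 in number 2 and 2.09 in number 3, against -0.09 and -0.07 over all genes. Within both numbers 5 were over 1 higher, Ifit1, Isg15, Usp18, Psmb8 and Tap1, and 0 were over 1 lower. Over all tested genes these shares were 1.0% and 0.982%. After OSM 14 of the list were over 1 higher within both numbers, against 2.1% of all tested genes. Irf7, the interferon regulatory factor that amplifies the response, read 2.94 and 2.94 in the lines of number 2 and 3.45 and 9.63 in those of number 3. By the list median the wide gap between the lines was thus in number 3. Single members were also far apart in number 2, with Psmb8 at 4.21, Ifit1 at 3.20 and Usp18 at 2.67. Irf1, an interferon-inducible transcription factor, read 10.88 and 12.02 against 11.41 and 12.78 untreated, where the groups overlap. After OSM it read 11.12 and 11.91 against 13.48 and 14.82. It passed over both treatments (adjusted p = 0.0315 with the block), with differences of 0.53 and 0.77 untreated and 2.36 and 2.91 after OSM.

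Promoter sequence was read for these genes because Stat3 binds sites of the form TTCNNNGAA, and because interferon-stimulated genes are known for paired elements, searched here as 2 copies of TTTC with 2 bases between. Of the 30 genes furthest apart by the smaller within-number difference, 21 had a RefSeq window (GRCm38.p6, 250 bases before to 50 after a start, either strand searched). Windows of 3 held TTCNNNGAA, those of Psmb8, Adcy7 and Ccl17, all higher in Stat3 KO. The TTTC pair was in windows of 2, those of Capn6 and Irx3, also higher in Stat3 KO and not printed here. The 250 bases before each start are given below in capitals where a motif matched. The positions are chr17:34197945-34198194 for Psmb8, chr8:88288816-88289065 for a start of Adcy7 and chr8:94810203-94810452 for Ccl17, all on the plus strand. Ifit1, chr19:34640639-34640888, is not among these 30 genes and was picked for its 2 matches of the TTTC pair. Cx3cl1, chr8:94771930-94772179, is shown as the neighbour of Ccl17 and the gene ranked first by its smaller within-number difference, with no match of either.
Psmb8: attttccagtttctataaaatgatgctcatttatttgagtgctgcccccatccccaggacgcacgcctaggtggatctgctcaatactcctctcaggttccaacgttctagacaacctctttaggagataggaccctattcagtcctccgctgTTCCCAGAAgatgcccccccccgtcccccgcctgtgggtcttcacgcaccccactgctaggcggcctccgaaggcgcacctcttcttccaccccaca
Adcy7: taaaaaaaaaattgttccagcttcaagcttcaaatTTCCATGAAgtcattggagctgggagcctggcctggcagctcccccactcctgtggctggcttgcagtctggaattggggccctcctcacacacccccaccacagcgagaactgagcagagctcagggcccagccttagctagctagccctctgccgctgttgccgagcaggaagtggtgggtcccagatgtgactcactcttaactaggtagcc
Ccl17: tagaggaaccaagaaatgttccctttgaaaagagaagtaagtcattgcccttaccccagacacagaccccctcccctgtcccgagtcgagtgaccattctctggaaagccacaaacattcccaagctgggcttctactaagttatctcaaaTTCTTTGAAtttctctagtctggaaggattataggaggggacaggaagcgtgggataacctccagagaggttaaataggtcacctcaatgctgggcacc
Ifit1: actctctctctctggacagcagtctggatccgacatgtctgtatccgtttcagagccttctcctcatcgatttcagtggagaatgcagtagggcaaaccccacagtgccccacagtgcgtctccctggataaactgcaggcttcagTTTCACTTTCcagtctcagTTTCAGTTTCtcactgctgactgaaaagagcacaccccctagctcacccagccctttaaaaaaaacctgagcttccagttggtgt
Cx3cl1: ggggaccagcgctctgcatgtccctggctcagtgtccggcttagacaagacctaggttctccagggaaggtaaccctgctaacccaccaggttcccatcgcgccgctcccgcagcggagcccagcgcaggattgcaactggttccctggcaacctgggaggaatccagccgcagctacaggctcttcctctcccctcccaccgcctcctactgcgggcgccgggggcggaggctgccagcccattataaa

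The matches begin at -97 in Psmb8, -215 in Adcy7 and -99 in Ccl17, counted from the start, and at -104 and -85 in Ifit1. Over the genes with a window, TTCNNNGAA was found in 4 of 38 higher genes (10.5%), in 1 of 37 lower genes (2.7%) and in 8.08% of the 4245 tested genes. In all 27025 genes of the table the share was 9.55%. The TTTC pair was found in 4 of 38 higher genes (10.5%), in 2 of 37 lower genes (5.41%) and in 3.79% of tested genes. It overlaps no letters of the first motif in the printed windows. The window of Stat3 held neither. These are matches of letters in a short window, given as a description.

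Some matrix genes are among the 52 higher genes and were picked after their values were seen. The fixed lists nearest to them held few: of 18 basement membrane genes 1 was over 1 higher, with a list median of -0.05, and of 16 integrins and matrix receptors 0 were. Over all tested genes 1.0% were over 1 higher. Postn, periostin, a matricellular protein of wounds and tendon, read 4.52 and 3.93 in Stat3 WT and 8.75 and 7.75 in Stat3 KO. After OSM the values were 4.45 and 3.79 against 7.80 and 7.66, so Stat3 KO was higher in all 4 pairs. All 4 Stat3 WT values lie under 5, so the size of the step is not well measured, and with values under 5 set to 5 the untreated difference was 3.25 in place of 4.02. Over both treatments Postn differed by 3.82 ± 0.20 (limma SE with the block, adjusted p = 0.00687).

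Tnc, tenascin-C, a matrix glycoprotein of repair, read 9.97 and 9.73 against 11.64 and 12.41, bright in both lines. It passed over both treatments (adjusted p = 0.0315 with the block). Fmod, fibromodulin, which binds collagen fibrils, read 10.73 and 7.81 in Stat3 WT and 13.49 and 13.24 in Stat3 KO, and did not pass (adjusted p = 0.0645). A second probe set of Fmod differed by only 0.21 and 0.04 within the numbers. Col6a3, a collagen VI chain, read 7.64 and 7.66 against 13.59 and 8.77, so that its gap was 5.95 in number 2 and 1.11 in number 3. Mmp9, a gelatin-degrading protease, read 4.51 and 4.32 against 8.79 and 7.32, and passed over both treatments (adjusted p = 0.0315 with the block).

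Of 17 fibroblast markers tested, 0 were over 1 apart within both numbers, against 1.98% of all tested genes. In number 2, 14 were above 0 with a median of 0.37, and in number 3, 1 was above 0 with a median of -0.30, so their overall median of 0.04 averages opposite directions. Col1a1, the main fibrillar collagen chain, read 15.56 and 15.85 in Stat3 WT and 15.67 and 15.83 in Stat3 KO. Probe sets of Vim and Thy1, also markers of fibroblasts, were under the floor on all 8 arrays, Vim at 3.45 to 3.70. Lum, a proteoglycan gene, read 2.56 and 8.04 in Stat3 WT and 2.56 and 2.89 in Stat3 KO, so it was bright on 1 untreated array only. Of 14 epithelial and 14 leukocyte markers on the array, 2 of each passed the filter. Krt8, an epithelial keratin, read 5.66 on the number 2 array of Stat3 WT and 2.52 to 2.67 on the other 3. Csf1r, the macrophage growth factor receptor, read 8.89 to 10.2 on its brightest probe set, with another pattern on its other one, while the leukocyte antigen Ptprc read 3.32 to 4.32.

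Among membrane and cytoskeletal genes, Capn6, a calpain without protease activity that binds microtubules, read 6.84 and 8.35 in Stat3 WT and 13.17 and 11.56 in Stat3 KO. Its other 2 probe sets read 6.59 and 7.56 against 11.90 and 10.26, and 2.98 and 3.59 against 9.38 and 3.75. The first of these gave the same picture as the main one, and the other did so in number 2 only. Adcy7, an adenylate cyclase that makes cyclic AMP, read 3.31 and 4.04 against 8.54 and 7.24, dim on both Stat3 WT arrays. Capg, an actin-capping protein, read 8.83 and 9.81 against 13.06 and 11.32.

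Cd99, a small adhesion glycoprotein, read 8.84 and 2.06 in Stat3 WT and 12.31 and 11.76 in Stat3 KO. Among the 15 genes furthest higher, only Usp18 differed more between the 2 untreated Stat3 WT arrays. After OSM the same split returned, 9.09 and 2.36 against 11.72 and 11.34. Cd99 therefore separated number 2 from number 3 within the Stat3 WT line, and the fit gave it an SE of 2.75.

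Crip1, a LIM-domain protein, read 14.38 and 13.14 in Stat3 WT and 9.80 and 11.48 in Stat3 KO. Myo5b, a motor of recycling vesicles, read 6.65 and 7.24 against 4.54 and 4.47, and passed over both treatments (adjusted p = 0.0298 with the block). Rhou read 10.32 and 11.98 against 8.87 and 9.77, and also passed (adjusted p = 0.0315). A second, dimmer probe set of Rhou differed by -0.21 in number 2 and -1.86 in number 3. Cystm1, a small membrane protein, read 10.49 and 9.15 against 8.55 and 6.27 (adjusted p = 0.0315 over both treatments with the block).

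**Figure D3:**
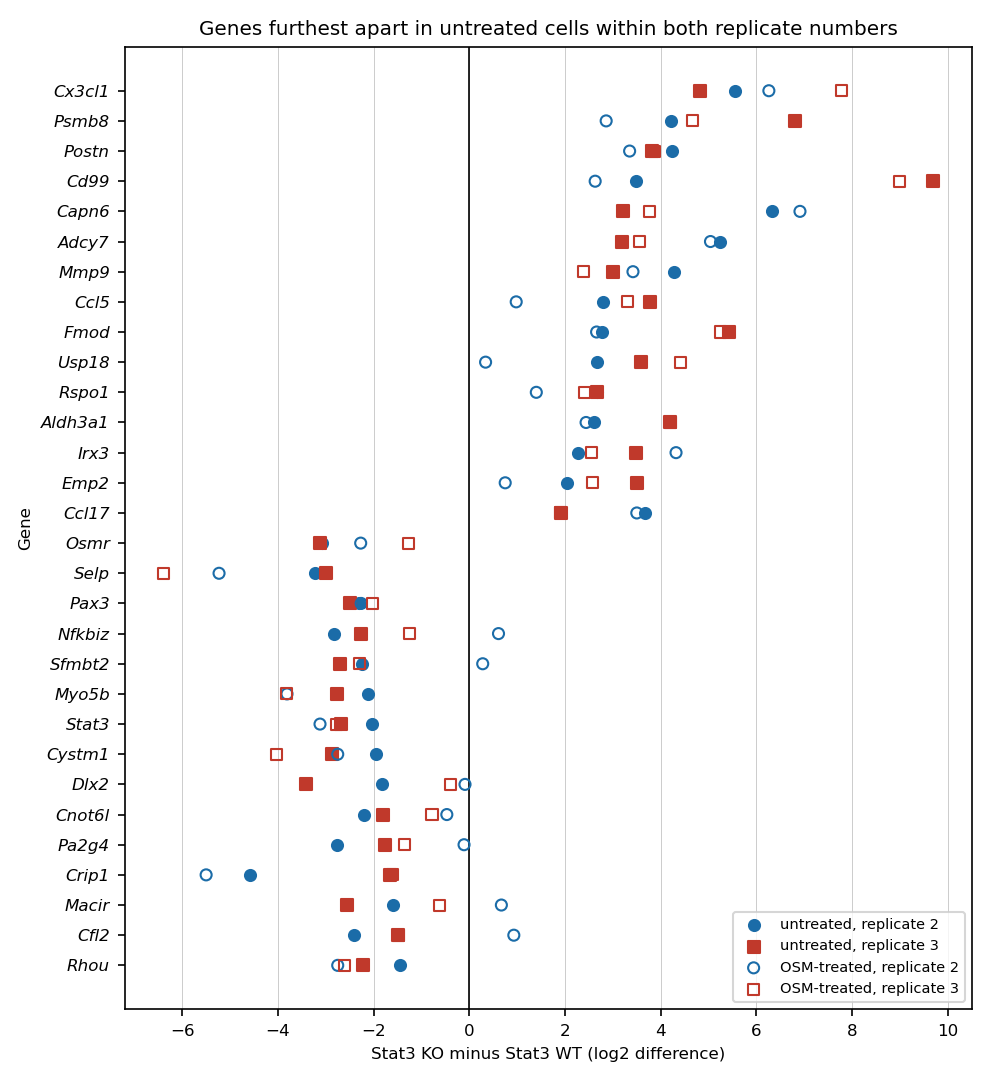
Stat3 KO minus WT (horizontal, log2) for the 15 genes furthest higher and the 15 furthest lower in untreated cells, 1 row per gene, with filled marks for untreated and open marks for OSM-treated arrays. Every filled mark lies on 1 side by the choice of genes, and some marks overlap. After OSM, Nfkbiz, Sfmbt2, Macir and Cfl2 lie above 0 in number 2.

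Further genes passed over both treatments with the block, a fit that by itself favours genes with an even step within both numbers. Nek6, a mitotic kinase, read 10.99 and 10.91 in Stat3 WT and 9.56 and 9.49 in Stat3 KO, and passed with an adjusted p of 0.0315. Vamp5, a vesicle SNARE, read 10.85 and 9.97 against 12.28 and 11.26 (adjusted p = 0.0315 with the block). Nek6 and Vamp5 did not overlap between the untreated lines. That held for 38 of the 52 higher and 33 of the 51 lower genes, so it does not set them apart. Nrep, named for its expression in regenerating neurons, read 8.96 and 8.36 against 11.09 and 9.87, and Srpx, a sushi-repeat protein, read 4.18 and 6.65 against 6.97 and 8.42. Cp, ceruloplasmin, the copper-carrying ferroxidase of the acute phase, read 10.60 and 12.85 against 9.21 and 11.98, with overlap between the lines but a lower value in Stat3 KO within each number. Ginm1, a membrane glycoprotein gene, read 6.70 and 7.06 against 5.45 and 5.86. Nrep, Srpx, Cp and Ginm1 each had an adjusted p of 0.0471 with the block.

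Several genes among the 15 furthest lower in untreated cells had smaller or opposite differences on OSM-treated arrays, although no change between treatments was called (adjusted p of at least 0.913 for every probe set, limma). Ranking by the untreated values by itself favours smaller differences on other arrays, so these values are not read as an effect of OSM. Sfmbt2, a Polycomb-group protein gene, read 6.52 and 10.38 in Stat3 WT and 4.28 and 7.68 in Stat3 KO, with differences after OSM of 0.28 and -2.30. Macir read 7.97 and 8.98 against 6.38 and 6.42, and after OSM it differed by 0.67 and -0.63. Cfl2, the muscle-type cofilin that severs actin filaments, read 7.52 and 9.99 against 5.11 and 8.51, and after OSM differed by 0.93 and -1.48. For these 3 genes the OSM-treated pair of number 2 thus lay on the other side of 0. Pa2g4, a growth-regulated RNA-binding protein, read 8.66 and 10.46 against 5.89 and 8.69, and Cnot6l, a deadenylase of the CCR4-NOT complex, read 7.66 and 9.39 against 5.46 and 7.58. After OSM both stayed lower within each number, by smaller steps of -0.11 and -1.35 for Pa2g4 and -0.47 and -0.78 for Cnot6l. On the higher side Emp2, a tetraspan membrane protein, read 6.94 and 5.88 against 8.99 and 9.38, and after OSM was higher by 0.75 and 2.57. None of these 6 genes passed over both treatments with the block, with adjusted p from 0.0839 for Cnot6l to 0.308 for Cfl2.

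Developmental regulators are known to mark the embryonic position or lineage of fibroblasts. Of 31 developmental transcription factors tested, 1 was over 1 higher and 2 were over 1 lower within both numbers, against 1.98% of all tested genes in either direction. The median difference of the list was -0.03. Irx3, an Iroquois homeobox factor, read 6.48 and 6.25 in Stat3 WT and 8.77 and 9.74 in Stat3 KO. Pax3, a paired-box factor of the dermomyotome and neural crest, read 6.94 and 6.6 against 4.63 and 4.11. Both passed over both treatments (adjusted p = 0.0488 and 0.0315 with the block, limma). Dlx2, a homeobox factor of the jaw and forebrain, read 5.31 and 7.26 against 3.49 and 3.85, while after OSM the differences were -0.09 and -0.40.

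Rspo1, R-spondin 1, which strengthens Wnt signals, read 7.41 and 10.06 against 10.07 and 12.71, so the step was 2.66 within each number although the groups nearly met. It passed over both treatments (adjusted p = 0.0315 with the block). Of 22 other genes of the Wnt pathway tested, 0 were over 1 apart within both numbers. Of 29 growth factors and receptors, 2 were over 1 higher. Gas6, the ligand of the TAM receptors, read 7.90 and 9.12 against 9.59 and 12.36, and Ghr, the growth hormone receptor, read 8.21 and 8.62 against 9.55 and 11.15. Fst, follistatin, which traps activins, was the 1 of 27 genes of the TGF-beta pathway over 1 apart, at 7.26 and 6.02 against 5.01 and 4.62. Beside these 3 lists, 1.98% of all tested genes were over 1 apart, 1.0% higher and 0.982% lower.

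In metabolism, Aldh3a1, an aldehyde dehydrogenase, was the 1 of 25 detoxification genes over 1 apart. It read 8.47 and 9.27 in Stat3 WT and 11.08 and 13.46 in Stat3 KO, and passed over both treatments (adjusted p = 0.0471 with the block). A second probe set differed the same way, by 0.75 and 1.34. Pfkl, the liver-type phosphofructokinase of glycolysis, read 12.58 and 11.59 against 11.58 and 10.55, and Ptgis, prostacyclin synthase, read 13.38 and 13.52 against 12.79 and 12.91. Both passed over both treatments (adjusted p = 0.0315 and 0.0471 with the block). Their differences were small, at -1.0 and -1.05 for Pfkl and -0.59 and -0.62 for Ptgis. They were nearly equal in the numbers, which the block fit favours. Of 83 solute carriers, 2 were over 1 lower, Slc22a23 and Slc4a4, and 0 higher. Of 30 lysosomal and 23 ribosomal protein genes, 0 were over 1 apart in either direction. Beside these lists and the detoxification genes, 1.98% of all tested genes were over 1 apart, 1.0% higher and 0.982% lower.

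Cdkn2a, the locus of p16 and p19 that guards against immortal growth, was present in both lines. It read 9.79 and 9.66 in Stat3 WT and 10.98 and 11.02 in Stat3 KO, higher by 1.19 and 1.36. It did not pass untreated (adjusted p = 1.0) or over both treatments with the block (adjusted p = 0.162), by limma. It was the 1 of 16 genes of senescence and immortal growth over 1 apart within both numbers, against 1.98% of all tested genes. Of 35 genes of mitosis and DNA replication, 7 were above 0 in number 2 and 33 in number 3, with medians of -0.56 and 0.90. Stat3 KO was thus mostly lower for this list in number 2 and mostly higher in number 3, and 0 of its members were over 1 apart within both.

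Imprinted and sex-linked genes were read as marks of line identity. Of 11 imprinted genes tested, 4 were above 0, with a list median of -0.09. Only 1 was over 1 apart within both numbers, against 1.98% of all tested genes. That gene, Sgce, a paternally expressed sarcoglycan gene, was 10.47 and 10.92 against 11.63 and 12.08, higher by 1.16 and 1.17. Igf2, a paternally expressed growth factor, read 10.05 and 8.85 against 8.49 and 8.75, so its difference lay in number 2. Dlk1 was at or under 2.43 on all 8 arrays. Xist, which coats the inactive X of female cells, read 2.87 to 3.56 on the untreated arrays, and the Y-linked Uty and Sry were also under 5 on all arrays. Eif2s3y, a Y-linked translation factor gene with a close copy on the X, read 6.32 and 6.46 in Stat3 WT and 7.36 and 8.84 in Stat3 KO. Its probes may bind the X copy, and Kdm5d, another Y-linked gene, read 4.71 to 5.09 in both lines with a difference of 0.01. That sign turned, to -0.05, with values under 5 set to 5.

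Genes were then grouped by chromosome, using RefSeq names and order (GRCm38.p6). Over all 5195 genes the median difference was -0.071. On chromosome 10, of 244 genes tested, 164 were lower in Stat3 KO within both numbers (67.2%) and 13 were higher (5.3%), against 34.3% lower and 20.4% higher over all genes. The median there was -0.497, with -0.551 in number 2 and -0.422 in number 3. After OSM the medians of chromosome 10 were -0.461 and -0.404. Median centring, chosen after the data were seen, gave -0.385, and renewed quantile normalization -0.427. The shift ran along the whole chromosome: in each of its 5 parts of 48 or 49 genes the median was between -0.67 and -0.28 within both numbers. Pfkl, Ginm1, Nedd1 and Pa2g4 are among its 6 genes over 1 lower, and Lama4, a laminin chain, is its 1 gene over 1 higher.

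Chromosome 2 also lay low, at -0.359 and -0.228 in the numbers, with 233 of 413 genes lower within both and 34 higher. Chromosome 15 lay high, at 0.111 and 0.340, with 101 of 213 genes higher within both and 20 lower. Osmr and Has2, both over 1 lower, go against the rest of chromosome 15. Chromosome 18 had medians of -0.150 and -0.504, and chromosome 13 of -0.398 and -0.135. These were lower within both numbers untreated, but chromosome 18 was at 0.094 in number 2 after OSM.

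**Figure D4:**
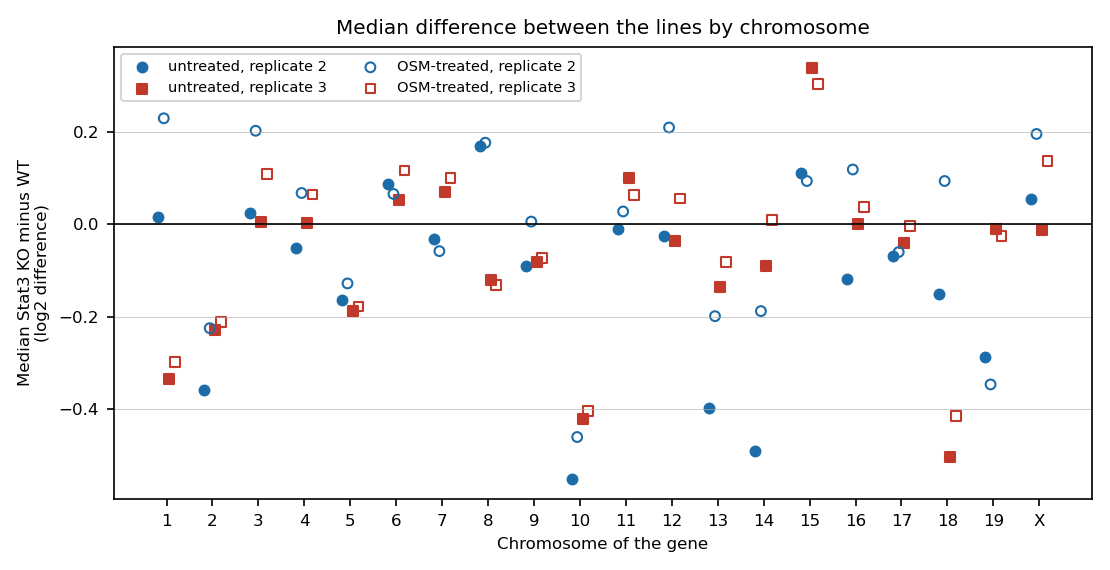
Median Stat3 KO minus WT difference (vertical, log2) of the genes on each chromosome (horizontal), with filled marks for untreated and open marks for OSM-treated arrays of number 2 and 3. Chromosome 10 lies lowest by the average of its 4 marks, between -0.551 and -0.404, and chromosome 15 has all 4 marks above 0.

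Chromosome 8 behaved in a way that its overall median of 0.036 hides. The median was 0.171 in number 2 and -0.120 in number 3, and 0.177 and -0.131 after OSM. The gap lay mostly in part 4 of its 5 parts, 57 genes from Mt2 to Vac14, where the median was 0.89 in number 2 and -0.40 in number 3. After OSM it was 0.71 and -0.47. Within Stat3 WT these genes were higher in number 3 than in number 2 by a median of 1.11 untreated and 1.06 after OSM. Within Stat3 KO the same step was -0.07 and -0.15. The 2 Stat3 WT arrays of each treatment thus differ from each other across a run of neighbouring genes where the Stat3 KO arrays do not. Cx3cl1, Ccl17 and Rrad lie in this part and are higher in Stat3 KO within both numbers, while Cmtr2, a cap methyltransferase gene there, is lower. The first part of chromosome 8 showed a smaller step of the same kind, with 0.64 in number 2 and -0.15 in number 3.

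**Figure D5:**
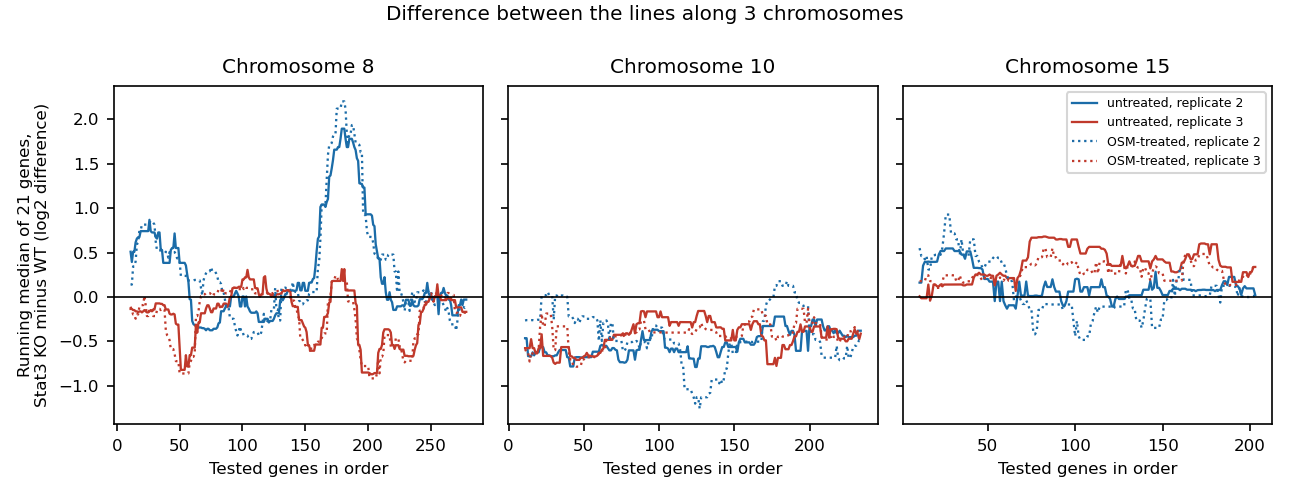
Running median over 21 neighbouring genes of the Stat3 KO minus WT difference (vertical, log2) along tested genes in order (horizontal) on chromosomes 8, 10 and 15, solid for untreated and dotted for OSM-treated arrays. On chromosome 8 the curves of number 2 peak above 0 in the first part and again in part 4, the peak in part 4 being the taller, where those of number 3 mostly lie near or below 0. On chromosome 10 the 4 curves lie below 0 over most of the chromosome.

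Among the 103 genes, 8 pairs of successive genes lie close together on a chromosome, with at most 8 coding genes between them. Cx3cl1 and Ccl17, and Tap1 and Psmb8, are neighbours with 0 coding genes between, and both members of each pair are higher. Itih2 and Sfmbt2 (1 gene between) and Dync1i2 and Dlx2 (4 between) are lower together, and Vamp5 and Capg (4 between) are higher together. In the other 3 pairs, Lama4 with Rev3l, Ccn3 with Has2 and Ifit1 with Ankrd1, the members go opposite ways.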

How the data were processed

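Biotin-labelled material from total RNA was hybridised to Affymetrix arrays, per the labels' protocols. The authors deposited 1 log2 value per probe set and array, made with affy and GCRMA per the submitters' processing notes. The sources used here give neither tool versions nor which arrays were normalized jointly. GCRMA draws dim probe sets to low values, which can enlarge a difference when 1 group is dim. Of 12488 probe sets 66 controls were set aside; 10833 have 1 gene symbol, 396 several and 1193 none in the platform annotation, and 10817 matched the RefSeq gene table of GRCm38.p6, used for names, chromosomes and gene order.

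Groups and replicate numbers come from the titles. The labels name no separate cultures, and the spread that p-values measure may thus be technical. The precision is limited by the 8 arrays. Limma 3.58.1 in R 4.3.3 (lmFit, eBayes with trend, two-sided, tested on simulated data) was fitted to all 8 arrays with 4 group means, and adjusted by Benjamini-Hochberg over probe sets at 5 or more on at least 2 arrays. A gene is its tested probe set with the highest mean. Number 3 minus number 2 correlated at 0.589 to 0.9106 between groups, so the numbers were taken to pair the arrays, on the evidence of the data and not of the labels. The block reduced the median standard error of the untreated difference from 0.486 to 0.283.

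The genes named are the 15 furthest higher and 15 furthest lower by the smaller within-number difference, up to 3 list members over 1 apart, Stat3, Cdkn2a, Igf2, Dlk1 and sex-linked genes. Genes called over both treatments, and others named from the 103 or from lists, were chosen after their values were seen, as was their grouping by role and the TTTC pair motif. The members and gene lists were chosen with earlier results of these data known. Other settings were no filter, a floor of 7, values under 5 set to 5, renewed quantile normalization, median centring, other thresholds, the replicate block and leaving out each array.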

Additional observations from a re-analysis of the deposited data

Results flagged for a closer look

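For 2 of the 103 genes the lines differed one way on both untreated pairs of arrays and the other way on both OSM-treated pairs. Tcea2, a transcription elongation factor gene, was higher in untreated Stat3 KO by 2.08 and 1.42 in numbers 2 and 3, and lower after OSM by values of -1.35 and -0.11. The change between treatments was -2.48 ± 1.62 (limma SE), with an adjusted p of 1.0, or 0.913 with the replicate block. Scel, sciellin, of the cornified envelope, was at -1.08 and -1.23 untreated and 0.03 and 0.49 after OSM. Its change was 1.42 ± 1.51 (limma SE), with an adjusted p of 1.0, or 0.913 with the block. Limma called 0 probe sets for this change with and without the block, with 29 and 248 at an unadjusted p under 0.05 without and with it.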

How the results depend on the processing

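With 2 arrays a group the spread between arrays sets what can be seen, and no setting raised the untreated count of calls above 1. That count was 0 under every setting run with all arrays, and 0 to 1 without any 1 array, where the 1 came from the fit with replicate block without the number 2 array of OSM-treated Stat3 KO. Calls over both treatments went from 1 to 3 with no filter and to 29 with the replicate block. Without any 1 array they were 0 to 1, and 0 to 5 with the block, the 2 highest being 5 and 4. OSM-treated calls went from 1 to 7 with the block. The cause was not tested. The block changed no other call. An arm left with 1 array is assumed to vary like the other groups. The 137 probe sets over 1 apart became 119 to 139 under other filters, scalings and the floor of 5, 25 at a difference over 2 and 481 at 1.5-fold. Chromosome medians moved for chromosome 2 (-0.197) and chromosome 10 (-0.385) with median centring, chromosome 13 (-0.135) in number 3 and chromosome 15 (0.111) in number 2. The shares read again in number 3 alone, 89.6% and 67.1%, were added after the data were seen. Of single-gene values, 365 of 366 kept their direction with all arrays, Kdm5d turning to -0.05, and all 9 of other probe sets did. Leaving out 1 untreated array kept 155 of 164, and 162 of 164 with the block. Those that turned were Usp18 (-0.78 to 7.04), Ifit1 (-1.74 to 6.83), Nfkbiz (-5.61 to 0.52), Lpl (-3.28 to 0.05) and Kdm5d (-0.18 to 0.21, and -0.12 to 0.15 with the block, through -0.04).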
